A study of Mus musculus with 6 samples.

Results

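Runx2 windows were examined at 6 genes of the growth-plate Hedgehog loop: the ligand gene Ihh, its receptor gene Ptch1, the signal transducer gene Smo, the transcription factor genes Gli2 and Gli3, and Pth1r, which encodes the receptor of parathyroid hormone and of parathyroid hormone-related protein (PTHrP). A window belonged to a gene when the deposited lists gave that gene to it as the nearest one, and a window of the other list that overlapped it by 1 bp was added. Both lists carry Pth1r under its older symbol Pthr1, and it was matched through its gene ID, 19228. Of 1000 windows in each list, 7 belonged to these genes in primary chondrocytes and 4 in inflamed chondrocytes, and no further window was added by overlap. The 11 windows formed 8 sites, among 1449 sites in all. Of the 6 genes, 4 had a window in primary chondrocytes and 3 in inflamed chondrocytes, where 4.11% and 4.04% of 21900 protein-coding genes had one, and Ihh had none in either list. The 6 genes were chosen with earlier results of these data known, so their counts cannot show an excess over those shares. Windows that overlapped between the lists by at least 1 bp are called shared, and 551 of 1000 (55.1%) were shared in each list.

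The study profiled Runx2 by chromatin immunoprecipitation and sequencing (ChIP-seq) in cultured chondrocytes of Runx2-Biotin-FLAG-tag mice of the C57BL/6 strain by the labels (C57BL/6J in the methods), 5 days of age, whose Runx2 protein carries the tag that the antibody recovers. Primary chondrocytes were in normal culture and inflamed chondrocytes in culture with interleukin-1β (IL-1β), a cytokine that drives joint inflammation, and all groups came from the same kind of mouse. The IL-1β dose is labelled as 1 ng per µL, whereas the methods state that figure per mL. Of 6 libraries, 1 each for anti-FLAG, mouse IgG and input in both conditions, the 4 anti-FLAG and input libraries lie behind the lists, and how many mice were pooled is not given in the sources used here. With 1 library per condition there is no replicate error and no test between conditions, and the sequencing depth is unknown because the lists hold no counts, scores or enrichment. The deposited windows are the first of a larger peak call, their numbering was taken as the order of the peaks, and a lower rank number means a higher place. The paper reports more raw peaks for primary than for inflamed chondrocytes. The first 1000 windows are thus a smaller part of the primary call, and equal ranks do not mark equal parts of the 2 calls. Occupancy and not expression was measured, and the RNA-seq data of the study were not used here, so the chondrocyte label was not checked against marker RNA.

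Indian hedgehog, the product of Ihh, is secreted by chondrocytes that have left proliferation. It binds patched 1, which otherwise holds smoothened inactive, and released smoothened passes the signal to the Gli factors: Gli2 acts mainly as an activator and Gli3 mainly as a repressor when the ligand is absent. Hedgehog signalling sustains PTHrP, which acts on Pth1r to delay hypertrophy, and Runx2 is known in the mouse as a driver of hypertrophy that lies upstream of Ihh.

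The letters of the 8 windows below are shown because they hold, or lack, the Runx motif at the genes that the results turn on. Runx proteins recognise TGTGGT and TGCGGT, searched on both strands, and matches are in capitals (ACCACA is TGTGGT on the minus strand). Sequences are the plus strand of mm9, 5′ to 3′, with positions counted from 1.
Gli2 rank 168 in primary chondrocytes, chr1:120890475-120890574: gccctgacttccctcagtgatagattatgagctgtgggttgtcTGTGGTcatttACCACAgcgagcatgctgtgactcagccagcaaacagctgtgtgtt
Gli2 rank 264 in primary chondrocytes, chr1:120824706-120824805: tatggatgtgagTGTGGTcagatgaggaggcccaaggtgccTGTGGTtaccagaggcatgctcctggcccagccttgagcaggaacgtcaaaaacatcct
Gli3 rank 951 in primary chondrocytes, chr13:15533987-15534086: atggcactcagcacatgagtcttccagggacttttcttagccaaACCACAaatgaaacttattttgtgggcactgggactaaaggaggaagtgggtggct
Smo rank 440 in inflamed chondrocytes, chr6:29694381-29694480: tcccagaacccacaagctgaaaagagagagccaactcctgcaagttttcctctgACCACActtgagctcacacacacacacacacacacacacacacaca
Pth1r rank 840 in primary chondrocytes, chr9:110631421-110631520: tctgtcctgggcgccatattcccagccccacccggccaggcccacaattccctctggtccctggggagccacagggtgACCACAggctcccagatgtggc
Pth1r rank 872 in inflamed chondrocytes, chr9:110631383-110631482: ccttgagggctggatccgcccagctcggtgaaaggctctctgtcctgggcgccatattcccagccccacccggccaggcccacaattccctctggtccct
Pth1r rank 532 in primary chondrocytes, chr9:110620751-110620850: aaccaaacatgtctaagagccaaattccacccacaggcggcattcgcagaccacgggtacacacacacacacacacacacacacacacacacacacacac
Ptch1 rank 707 in primary chondrocytes, chr13:63669351-63669450: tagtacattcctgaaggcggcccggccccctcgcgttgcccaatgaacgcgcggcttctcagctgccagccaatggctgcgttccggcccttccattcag

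Gli2 held the highest-placed windows of the group, and both of its sites carried a pair of Runx motifs. The gene spans 219.5 kb on the minus strand of chromosome 1 (120730709 to 120950196 in GENCODE M1 on mm9), and each of its sites lay in intron 2 of the deposited transcript, which has 14 exons. In primary chondrocytes the windows had ranks 168 and 264, at 59.7 and 125 kb downstream of the transcription start site (TSS). In inflamed chondrocytes there was 1 window, at rank 188 and 125 kb from the TSS. These distances are to the deposited TSS. From the nearest GENCODE M1 TSS of Gli2, the windows of ranks 264 and 188 each lay 54.4 kb downstream.

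The site at 125 kb was the same in both conditions. Its windows, ranks 264 and 188, overlapped by 88 bp and their centres lay 12 bp apart. Both held the same pair of TGTGGT motifs, on the plus strand with 23 bases between them. The nearer motif was centred 6 bp from the window centre in primary and 18 bp in inflamed chondrocytes. The window stood 76 places higher in the inflamed list, and of all 551 shared windows 69.7% changed by as many places or more. The 78 other shared windows within 50 ranks of it in the primary list had a median change of 48 places down (quartiles −93.5 to 157.5), so its change lay within their spread.

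The site at 59.7 kb, rank 168, was listed for primary chondrocytes alone. The nearest inflamed window was the other Gli2 site, 65.8 kb away. Of the 100 windows nearest to it in rank, 80 (80%) were shared. It held TGTGGT 4 bp to the left of its centre and ACCACA 7 bp to the right, with 5 bases between them, so that the motifs faced each other on opposite strands. No other primary window and no inflamed window had motifs in that arrangement at that spacing, a count chosen after the sequence was seen. The same spacing without that strand order did recur, as in the primary window of rank 312 and the inflamed window of rank 355. Those windows overlap and are 1 shared site. Motifs on opposite strands at any spacing occurred in 4.8% of primary and 3.9% of inflamed windows. An AP-1 motif (TGANTCA, bound by Fos and Jun proteins) lay 25.5 bp from the centre of the same window, which was 1 of the 7 primary windows with one, against 7.7% of all primary windows and 2.65% of sequence of equal width 1000 bp to each side. In GENCODE M1 a shorter Gli2 transcript starts 11.4 kb downstream of this window.

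Gli3 had 1 window, at rank 951 in primary chondrocytes and none in inflamed chondrocytes. It lay 21.5 kb upstream of the TSS of this 266.8 kb gene on the plus strand of chromosome 13, in intergenic sequence (chr13:15533987-15534086). Its ACCACA motif was centred 3 bp from the window centre. The nearest inflamed window was 2534 kb away, at 1600012F09Rik. Absence of this window from the inflamed list cannot be read as loss of occupancy, since the window stood near the end of its own list, where 22.2% of 99 neighbours in rank were shared.

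**Figure D1:**
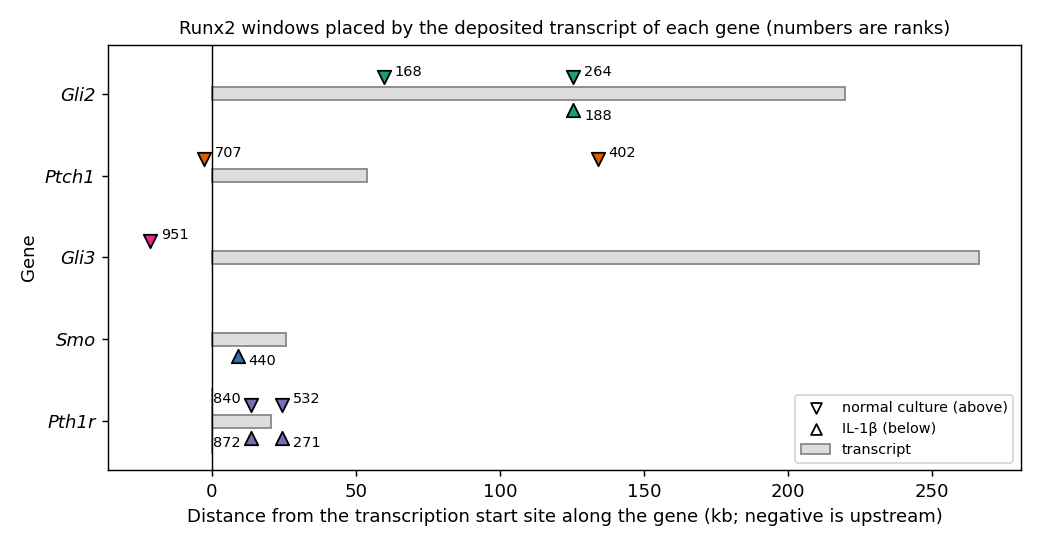
Position of each window (triangles) along the deposited transcript (grey bar) of its gene, in kb from the transcription start site, with primary chondrocytes (normal culture) above the bar, inflamed chondrocytes (IL-1β) below it, and ranks as numbers. The Gli2 and Pth1r windows at 125, 24.3 and 13.6 kb appear in both conditions, and the Ptch1 window of rank 402 lies 79.9 kb beyond the transcript's end.

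Ptch1 was named for 2 windows, both in primary chondrocytes, and only 1 of them lay at the gene by both annotations. The window of rank 707 (chr13:63669351-63669450) lay 2.57 kb upstream of the deposited TSS, inside an intron of a longer GENCODE M1 transcript. It held no TGTGGT or TGCGGT within its 100 bp, and 1 when read over 200 bp. A Tead motif (ACATTCC) was present near its left edge, at bases 5 to 11, as in 5.9% of primary windows. Its GC content of 64% was above the upper quartile of 61.25% for all primary windows. No inflamed window lay within 136 kb of it, and of its 100 neighbours in rank 45 (45%) were shared.

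The other window given to Ptch1, rank 402 (chr13:63532890-63532989), lay 134 kb from the Ptch1 TSS. By GENCODE M1 it was in an exon of Fancc, a gene of the Fanconi anaemia DNA repair pathway, 0.052 kb from the Fancc TSS. The inflamed list gave Fancc to a window of rank 304 at the same promoter, 0.033 kb from its TSS. These windows did not overlap: 47 bp separated their edges and 147 bp their centres, so by the 1 bp rule neither was shared. Of the 449 primary windows without an overlap, 45 (10%) had an inflamed window within 200 bp in this way. With centres within 200 bp taken as shared, 4 of the 7 primary windows had a counterpart, beside 596 of all 1000 primary windows. Neither promoter window held a TGTGGT or TGCGGT motif.

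Smo, which encodes the transducer that patched 1 restrains, had a window in inflamed chondrocytes alone. It stood at rank 440 in intron 1 of the gene, 8.93 kb downstream of the TSS (chr6:29694381-29694480). Its ACCACA motif lay 7 bp from the centre, and a run of alternating C and A of 32 bases filled the right end of the window. The nearest primary window was 277 kb from it, at the Atp6v1f promoter and at rank 504. Of its 100 neighbours in rank 55 (55%) were shared.

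Pth1r was the 1 gene of the group with each of its windows in both lists. The gene spans 25.1 kb on the minus strand of chromosome 9 (110624592 to 110649649). The first site lay 3.79 kb beyond the 3′ end of the deposited transcript, 24.3 kb from the TSS, at rank 532 in primary chondrocytes and 271 in inflamed chondrocytes, with an overlap of 83 bp. The second lay in intron 3 of the gene, 13.6 kb from the TSS, at ranks 840 and 872, with an overlap of 62 bp.

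The first Pth1r site thus stood 261 places higher in the inflamed list. Of all shared windows 28.7% (158 of 551) changed by as many places or more, and the 44 other shared windows within 50 ranks had changes from −466 to 456 with quartiles of −209.25 and 169.75. The difference was outside those quartiles and inside their range. Its windows held neither TGTGGT nor TGCGGT, nor did 200 bp around the centre. They held runs of alternating C and A of 42 bases in primary and 43 in inflamed chondrocytes. The part of such runs in the ranks was not tested.

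The second Pth1r site stood 32 places lower in the inflamed list, and 84.8% of shared windows changed by as many places or more in either direction. The 31 other shared windows within 50 ranks of it in the primary list had a median change of −222 places, that is upwards, with quartiles of −414 and −109.5 and a range from −651 to 153. The change at Pth1r lay outside their quartiles and inside their range. Shared windows must stand within the first 1000 of both lists, so windows this low in 1 list could move up much further than down. This comparison therefore cannot set Pth1r apart from its neighbours in rank. In the primary window an ACCACA motif lay 31 bp from the centre. The inflamed window was centred 38 bp to the left and ended before that motif, so that it was counted as lacking one, while 200 bp around its centre held 2. A further pair of windows, ranks 135 and 149, lay 34.4 kb from Pth1r and was given to Myl3, a myosin light chain gene, in both lists.

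**Figure D2:**
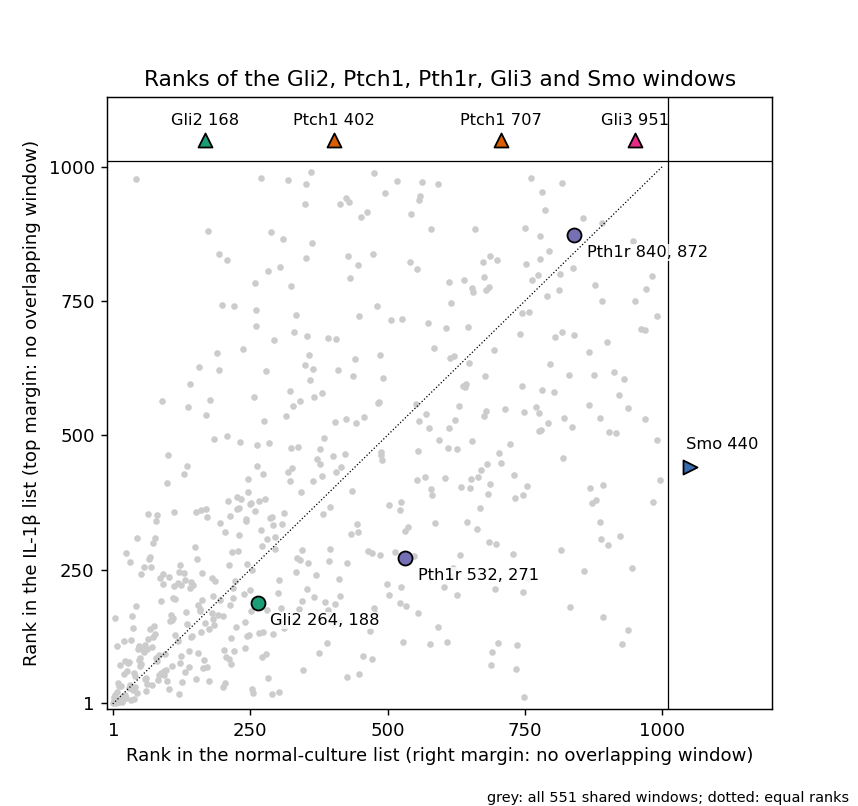
Rank of each window in the primary list (x axis, normal culture) against its rank in the inflamed list (y axis, IL-1β), with the 551 shared windows in grey, equal ranks on the dotted line, and windows without an overlap in the margins. Gli2 (264, 188) and Pth1r (532, 271) lie below the line and Pth1r (840, 872) above it, while 4 primary windows and the Smo window are in the margins.

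Ihh, the ligand gene, was the member without a window. Its 6.4 kb on chromosome 1 (74991891 to 74998246) lay 141 kb from the nearest window of either list. That window was one site, at the Fam134a promoter, which the lists name BC038286 at rank 31 in primary and rank 264 in inflamed chondrocytes. An inflamed window of rank 881, given to the Wnt ligand gene Wnt10a, lay 142 kb from Ihh. The lists give no more than their first 1000 windows, so a window at Ihh further down was not analysed here. The paper names Ihh, and its supplement the pathway genes Gli1 and Hhip, among genes lowered by Runx2 knockout in primary chondrocytes. That RNA result was not examined here, and a missing window does not bear on it.

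Counted over the group, 3 of 7 primary windows and 3 of 4 inflamed windows were shared, against 55.1% of all windows in each list (95% Wilson interval 52.0 to 58.2%, counting error only). The primary windows that were not shared stood at ranks 168, 402, 707 and 951 and thus spread over the whole list. The median rank was 532 of the 7 primary windows and 355.5 of the 4 inflamed windows, beside 500.5 for all windows. No test was made on these few windows, and the shares and medians are given as a description alone. By gene, Gli2 and Pth1r were named in both conditions, Ptch1 and Gli3 in primary chondrocytes alone and Smo in inflamed chondrocytes alone.

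**Figure D3:**
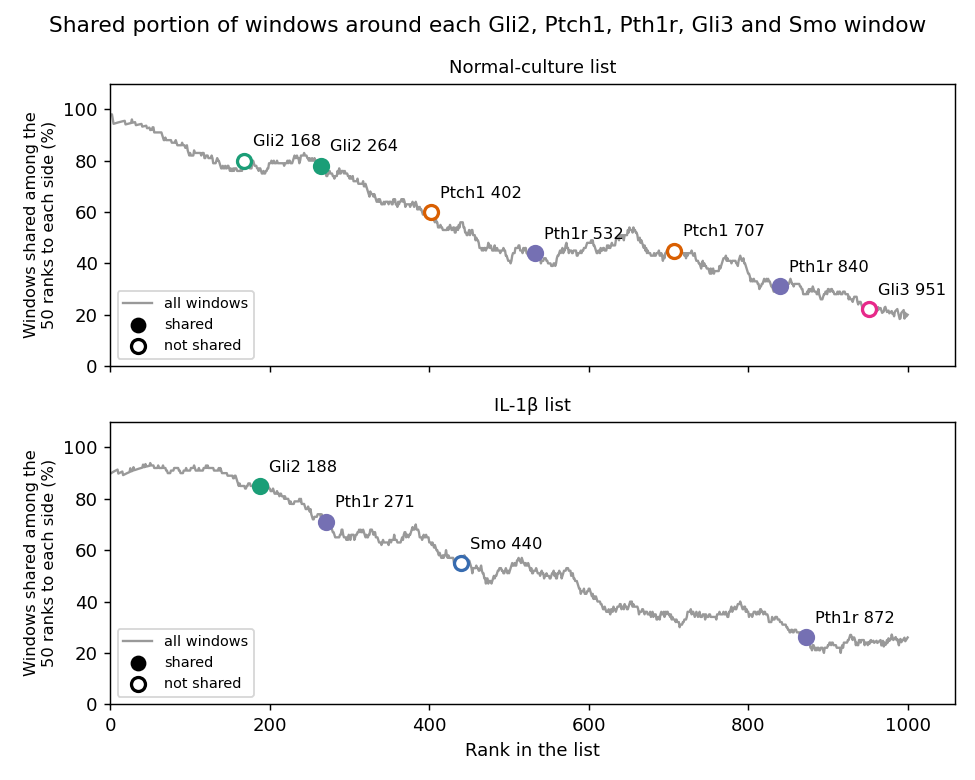
Percentage of windows shared between the lists among the 50 ranks to each side of every rank (grey line), for the primary list above and the inflamed list below, with shared windows of the 5 genes as filled circles and the others as open circles. The line lies at 80% around the Gli2 window of rank 168, which was not shared, and at 22.2% around the Gli3 window of rank 951.

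No window of the group lay within 500 bp of the start of its own gene. Inside the deposited transcript lay 3 of 7 primary and 3 of 4 inflamed windows, beside 26.4% and 37.9% of all windows, and all of them were intronic, as were 22.4% and 33.2% of all windows. Within 500 bp of any protein-coding TSS lay 1 primary window, the one at the Fancc promoter, and no inflamed window, beside 27.2% and 21.1%. The median distance to the deposited TSS was 24.3 kb for the 7 primary windows and 19.0 kb for the 4 inflamed ones, against 39.6 and 30.1 kb for all windows. These medians depend on which transcript the lists chose.

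Runx motifs were present in 4 of 7 primary and 2 of 4 inflamed windows, where 63.3% and 59.4% of all windows had one and 8.1% and 9.4% of flanking sequence did. These counts lay near the shares of the whole lists. A pair of motifs was present in 2 primary windows and 1 inflamed window, all at Gli2, against 14.7% and 11.8% of all windows. Where a motif was present, its centre lay a median of 17 bp from the window centre in all primary windows and 17.5 bp in all inflamed windows. Runs of at least 20 bases of alternating C and A or G and T occurred in 1 primary window (Pth1r) and 2 inflamed windows (Pth1r and Smo), beside 3.2% and 2.8% of all windows.

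Of the other motifs searched on both strands, no window of the group held a Sox motif (ACAAAG or ACAATG, in 7.1% of primary and 8.2% of inflamed windows) or the Gli motif GACCACCCA (0.1% in both). None held NF-κB (GGGNNTTCC), CREB (TGACGTCA), Ets (CCGGAAG), Sp and Klf (GGGGCGG) or palindromic Nfi motifs, which occurred in at most 6.1% of all windows of a list. GC content ranged from 47% at Gli3 to 67% at the intronic Pth1r site in primary chondrocytes and from 50% at Smo to 66% in inflamed chondrocytes, where the medians of all windows were 53% in both.

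**Figure D4:**
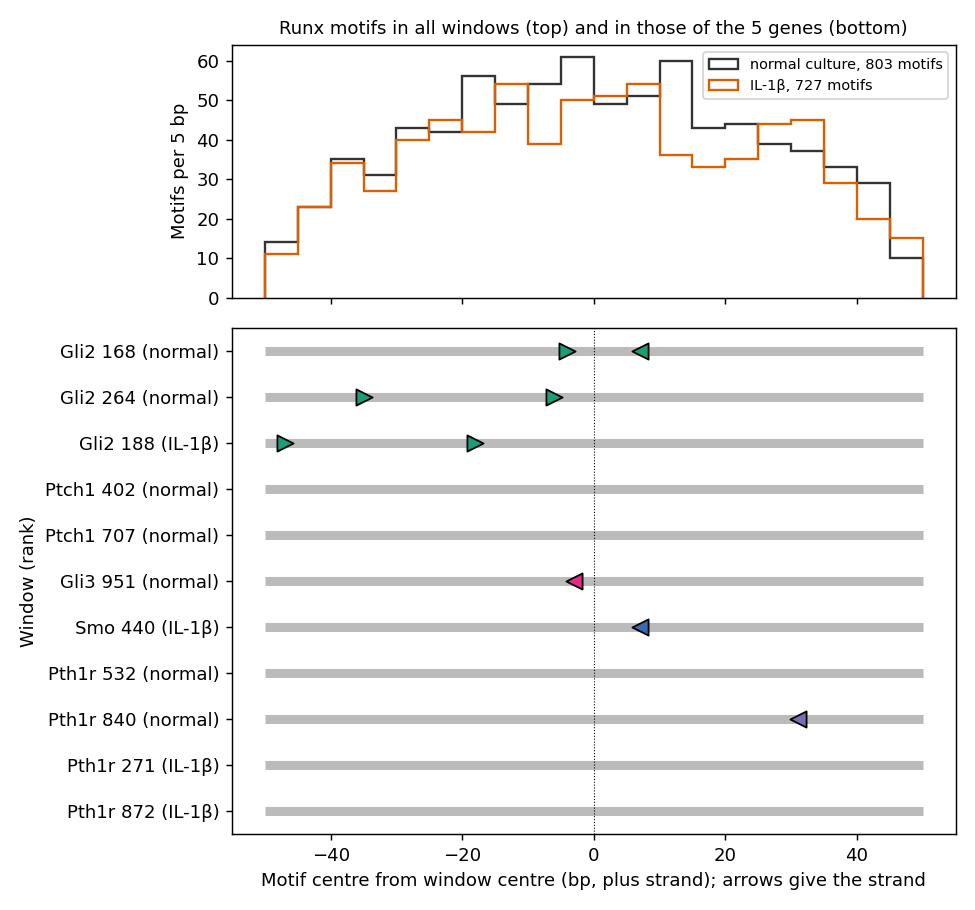
Top, number of Runx motifs (TGTGGT or TGCGGT, either strand) per 5 bp by distance of the motif centre from the window centre, over all windows of each list. Bottom, the motifs (arrows, pointing right for the plus strand) in each window of the 5 genes: Gli2 windows hold 2 each, while both Ptch1 windows and 3 of the 4 Pth1r windows hold none.

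By likeness of the rank pair, the shared windows nearest to the Gli2 site (264, 188) were those of Tmem74 (252, 173) and of a site given to Cdc42ep1 in primary and Lgals2 in inflamed chondrocytes (281, 175), at distances of 19.2 and 21.4 ranks. The first Pth1r site lay nearest to a window of Tns3 (549, 276). The second lay nearest to windows of Scel (855, 904) and Slmo1 (793, 843). The measure is the Euclidean distance between pairs of ranks, over 1 library per condition.

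A wider list of 53 genes of the Hedgehog and PTHrP pathways, these 6 included, had 7 genes named in primary and 8 in inflamed chondrocytes (13.2 and 15.1%), beside 4.11% and 4.04% of all protein-coding genes. The 47 genes other than the 6 had 3 (6.38%) and 5 (10.6%). By GENCODE M1 the 47 had 2 and 3, so these counts depend on the annotation. Because the 6 genes and the list were chosen with earlier results of these data known, the counts are a description alone.

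Among ligands and the genes of their release, 1 of 9 was named: Hhat, whose enzyme attaches palmitate to Hedgehog proteins, at rank 104 in inflamed chondrocytes. The same site was given to Sertad4 in primary chondrocytes, at rank 240. By GENCODE M1 the nearest gene was Hhat for both windows, with a TSS 0.651 and 0.643 kb away. Shh, Dhh, Disp1, Disp2 and the Scube genes had no window.

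Among receptors and co-receptors other than Ptch1 and Smo, Gas1, a co-receptor gene, was given an identical window in both lists, at ranks 48 and 81, with a Runx motif. It lay 188 kb upstream of Gas1, however, and its nearest GENCODE M1 gene was Gm5084. Hhip, Boc and Cdon had none.

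Among 22 transcription factors and regulators, 3 were named in primary and 2 in inflamed chondrocytes. Beside Gli2 and Gli3 these were Glis1, a Gli-related zinc finger gene with windows of ranks 651 and 803 in intron 4 in inflamed chondrocytes alone and without a Runx motif, and Prkacb, a catalytic subunit gene of protein kinase A, which limits Gli activation. The Prkacb window, rank 582 in primary chondrocytes, lay 63.2 kb upstream and nearest to Ttll7 by GENCODE M1. Gli1 and Sufu had no window.

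On the PTHrP side 2 of 12 genes were named in each list, Pth1r and Hdac4. Hdac4, a histone deacetylase gene whose product restrains Runx2 and hypertrophy in the mouse, had a shared window in intron 1, 68.0 kb from its TSS, at ranks 771 and 552. It held 1 Runx motif in each list. Pthlh, which encodes PTHrP itself, had no window.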

How the data were processed

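Runx2 ChIP-seq libraries of primary and inflamed chondrocytes were made from anti-FLAG, IgG and input DNA. Per the submitters' processing notes, alignment to mm9 used Bowtie2 2.2.2. Peak calling by the authors used CisGenome on anti-FLAG against input of the same condition, and they deposited the first 1000 windows of each call, 100 bp wide, with a window number, coordinates and 1 nearest RefSeq transcript. The deposited lists hold no counts or enrichment, and IgG was not used here.

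Overlaps (1 bp or more), distances, motifs and Wilson 95% intervals were computed with Python 3.11.15, numpy 2.4.6, pandas 2.3.3, pysam 0.24.0, statsmodels 0.14.6 and bedtools 2.31.1, and the functions were tested on simulated data. Starts were read as counting from 0. Of 1351 deposited transcripts, 631 had a start 1 below a GENCODE M1 start on mm9, and 54 a start equal to one. Windows were assigned anew to 22380 protein-coding GENCODE M1 genes. RefSeq names (GRCm38.p6) matched 901 of 912 and 884 of 893 gene IDs.

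The genes named were the 6, the genes sharing their windows, the nearest windows where a gene had none, and every listed pathway gene with a window. For likeness, the 2 shared windows nearest in rank pair were named. Some items under these rules are not reported here. Members and lists were chosen with earlier results of these data known.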

Additional observations from a re-analysis of the deposited data

How the results depend on the processing

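No paired analysis was possible because each group holds 1 library and no result comes from a test. Of 40 alternatives for the counts and medians, 29 kept the count within 1.5 times or the median distance within 0.05 kb, and 11 did not. With the first 500 windows of each list alone, the windows of the 6 genes were 3 in primary chondrocytes and the genes named 2, shared windows of the 6 genes were 1 in each list, all shared windows were 293, and pathway genes were 3 in primary and 5 in inflamed chondrocytes, since fewer windows were counted. Measured to the gene body's edge, the median distance was 2.57 kb in primary and 0 kb in inflamed chondrocytes, and to the nearest GENCODE M1 TSS of the gene 21.03 kb in primary chondrocytes. For the Gli2 window of rank 168 the sign turned with that TSS, from 59.7 kb downstream to 11.4 kb upstream (−11.4 kb), because GENCODE M1 holds a shorter transcript. Overlap of 50 bp left the 3 shared sites of the group and 461 of the 551 shared windows in all, and GENCODE M1 genes left 6 of the 7 primary windows. The unknown depth and the end of each list at 1000 windows limit every statement that a window was in 1 list alone.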
